A study of Oryza sativa with 36 samples.

Results

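The 6 rice genes described here were RAB21 (LOC4350454), Dhn1 (LOC4330265), rab25 (LOC4326935), LEA19 (LOC4339480), Emp1 (LOC4338499) and PYL11 (LOC4338104). They were chosen by name, with earlier results of these data known, and every array probe set annotated to exactly 1 of them was taken. Their calls and ranks beside the shares of all probe sets are therefore descriptions, not independent support. That gave 9 probe sets of the 57194 on the array that are not controls, and 6 genes of the 17905 behind probe sets with a single gene symbol. RAB21 had 2 probe sets, Dhn1 had 3, and each of the others had 1. Probe sets of a gene are numbered here by their mean signal, the highest being the first.

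Expression was profiled with Affymetrix rice arrays in leaves and roots of LYP9, 9311 and PA64s. The labels do not state the pedigree, but LYP9 is known as the hybrid bred from 9311 and PA64s. Each cultivar and tissue was sampled in a nutrient-sufficient and a nutrient-deficient state, 3 arrays per group, which made 12 groups and 36 arrays. All seedlings began with 5 days in a nutrient soil mix, after which every one of 12 barrels filled with poor soil received 15 plants per variety. At 14 days of age, 6 barrels received 10 g urea and 10 g compound fertiliser, the nutrient-sufficient state, and the other barrels received none, the nutrient-deficient state. Whether the 3 arrays within each group trace to separate plants is not stated, so p-values here measure only the spread between these samples, which may be technical. The labels also do not give the age at harvest or the soil water content.

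Late embryogenesis abundant (LEA) proteins are small, very hydrophilic proteins that accumulate in maturing seeds and in vegetative tissue that loses water, and dehydrins are one of their families. Many LEA genes are induced by abscisic acid (ABA), the hormone of seed maturation and drought. In that pathway a receptor of the PYR/PYL/RCAR family binds ABA and then inhibits clade A protein phosphatases 2C. This frees some kinases of the SnRK2 family, which is called SAPK in rice, to phosphorylate bZIP transcription factors that bind ABA response elements in target promoters. RAB21 is a dehydrin and one of the classical ABA-responsive genes of rice. Dhn1 and rab25 are also dehydrins, LEA19 is a LEA protein of group 3, Emp1 is an Em protein (LEA group 1) known from the maturing embryo, and PYL11 is an ABA receptor.

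The values are linear array intensities, and differences are on the log2 scale. Each adjusted p below is from limma with Benjamini-Hochberg adjustment over the 34316 probe sets of a fit that passed a filter on low signal, the upper 60% by mean log2 intensity. A probe set was called at an adjusted p under 0.05, and the error beside a log2 difference is its standard error in limma. Of the 9 probe sets, 5 passed the filter in leaf, 7 in root and 6 in the fit of both tissues. In leaf the second and the third probe sets of Dhn1, rab25 and Emp1 did not pass. In root the second probe set of RAB21 and Emp1 did not pass, and in both tissues together the third of Dhn1, rab25 and Emp1 did not. A group mean below the filter level is near the background of the array, so a change against it is printed in log2 units, without a fold. Levels of different probe sets are not compared, because each has its own sensitivity. In these bulk tissues, more cells of a type and more RNA per cell cannot be told apart.

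The median signal per array lay between 66.94 and 75.375 units for leaves and between 65.97 and 74.48 for roots, and arrays of 1 group correlated at 0.9753 to 0.9894 in leaf and at 0.9735 to 0.987 in root across probe sets. The labelled tissues were borne out by their markers. The 6 leaf markers with a probe set summed to 54455 to 94331 intensity units in leaf and to 337 to 1230 in root, and the 4 root markers summed to 6501 to 16673 in root and to 406 to 962 in leaf. Both sums moved with the nutrient state. Leaf markers summed to 83174 to 94331 in sufficient leaves and to 54455 to 79231 in deficient leaves, and root markers to 11135 to 16673 in sufficient roots and to 6501 to 10922 in deficient roots. Their part in the results below was not tested. The 6 seed storage protein genes, which would mark remains of the grain, overlapped between states, with 905 to 1410 in sufficient and 966 to 1260 in deficient leaves. Among all probe sets called in leaf, 70% in LYP9, 66.7% in 9311 and 64.9% in PA64s were higher in the sufficient state, and after quantile normalization these shares were 45.9%, 48% and 46.2%.

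In leaf, the comparison of the nutrient states asks how these genes differed after fertiliser. RAB21 was higher in sufficient leaves of all 3 cultivars, with no overlap between the arrays of the states, and in 9311 the difference was 15.7-fold. LEA19 was also higher in sufficient 9311 leaves. Of the 9 probe sets, 1 was called in LYP9 leaves (RAB21), 3 in 9311 leaves (RAB21 and LEA19) and 2 in PA64s leaves (RAB21), all of them higher. Among all 34316 probe sets tested, 8.85% were called in LYP9 leaves, 11.9% in 9311 leaves and 7.73% in PA64s leaves, and 6.2%, 7.96% and 5.01% were called higher. Arrays of the states did not overlap, with the sufficient ones higher, for 18%, 20.5% and 18.2% of all probe sets tested.

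RAB21 on its first probe set measured 2130.94, 315.52 and 1148.76 intensity units in sufficient LYP9 leaves, against 94.0, 233.91 and 125.36 in deficient LYP9 leaves. In 9311 leaves it measured 1376.8, 3571.07 and 1662.62 in the sufficient state, against 138.52, 139.77 and 108.74 in the deficient state. In PA64s leaves it measured 1323.82, 4698.13 and 264.29 in the sufficient state, against 88.53, 170.56 and 261.63 in the deficient state. Every sufficient array lay above every deficient array of its cultivar, but by a margin of under 3 intensity units in PA64s, where replicate 3 of the sufficient state was low. The spread was wide in the sufficient state, with SDs of 1.41, 0.73 and 2.08 log2 units in LYP9, 9311 and PA64s, against 0.67, 0.21 and 0.79 in the deficient state (n = 3 each). The log2 difference was 3.97 ± 0.82 in 9311 (adjusted p = 0.00559) and 2.90 ± 0.82 in PA64s (7.47-fold, adjusted p = 0.0414). In LYP9 it was 2.71 ± 0.82 (6.54-fold) and just missed the threshold (adjusted p = 0.051). By size it ranked 19 from the top of the 34316 probe sets in 9311 leaves, 40 in PA64s leaves and 69 in LYP9 leaves.

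The second RAB21 probe set was designed on the same transcript record, so it is no independent measurement of the gene, and its design may also bind close relatives. It measured 1734.12, 205.36 and 931.43 units in sufficient LYP9 leaves, against 50.45, 140.13 and 55.82 in deficient LYP9 leaves, a log2 difference of 3.24 ± 0.82 that was called (9.44-fold, adjusted p = 0.0231). The differences were 4.33 ± 0.82 in 9311 (20.1-fold, adjusted p = 0.00335) and 2.90 ± 0.82 in PA64s (7.46-fold, adjusted p = 0.0416). RAB21 was therefore called by both probe sets in 9311 and PA64s and by 1 of 2 in LYP9. The calls in 9311 held at each of 26 alternatives on both probe sets. In PA64s each was lost without filter, after quantile normalization and after median centring (adjusted p = 0.0511 to 0.0527), and without any of 8 arrays. The PA64s difference of the first probe set was 1.90 without replicate 2 of the sufficient leaves (adjusted p = 0.136). In LYP9 the second probe set lost its call without any of 4 LYP9 arrays (log2 2.58 to 3.04, adjusted p up to 0.11). The first was called there at 6 of 26 alternatives. It was called without replicate 2 of the sufficient LYP9 leaves (log2 3.48, adjusted p = 0.0197) and without replicate 2 or 3 of the sufficient PA64s leaves, which enter the shared spread (adjusted p = 0.0231 and 0.0156).

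**Figure D1:**
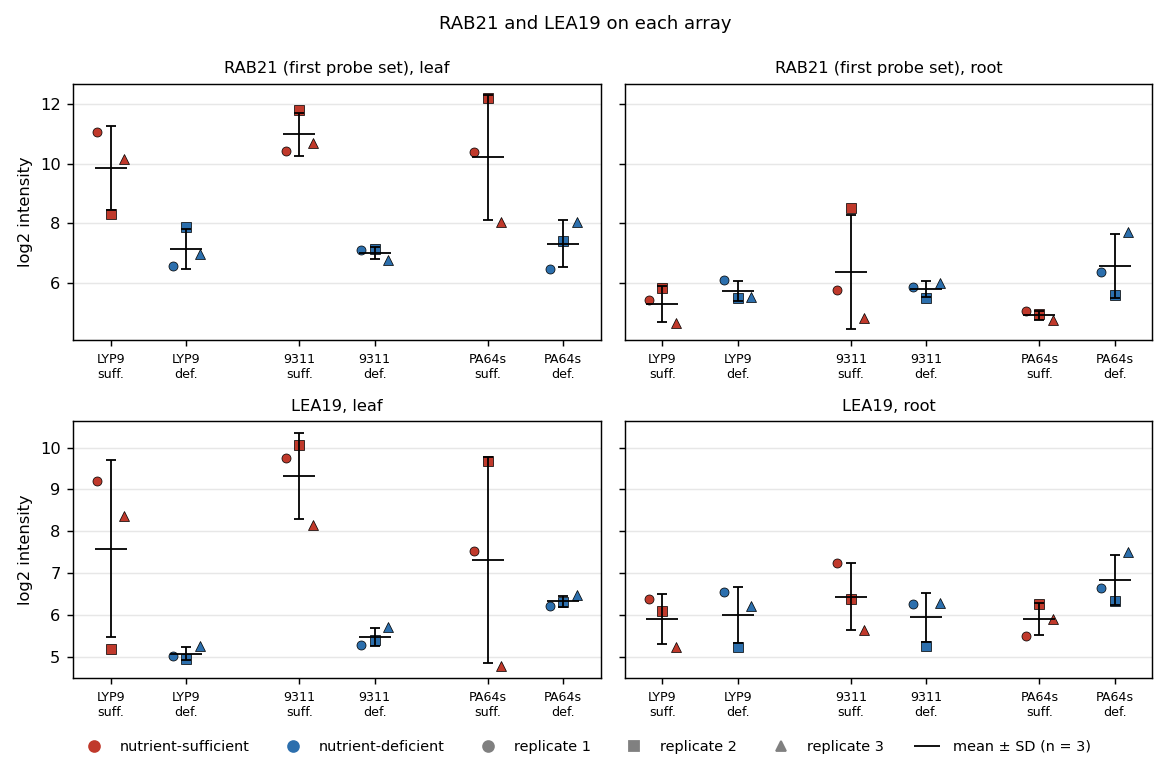
Log2 intensity of RAB21 (first probe set, top) and LEA19 (bottom) on each array, for leaf (left) and root (right), by cultivar and nutrient state; bars are the mean and SD of 3 arrays. In leaf the sufficient arrays of RAB21 lie above the deficient ones in all 3 cultivars, and 1 sufficient array each of LYP9 and PA64s falls to the deficient level of LEA19; in root the states overlap in LYP9 and 9311, and in PA64s the sufficient arrays lie below the deficient ones for both genes.

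LEA19, a group 3 LEA protein, was called higher in sufficient leaves of 9311, and not in LYP9 or PA64s. Its only probe set, like the second of Dhn1, has the design type of the second of RAB21, which may also bind close relatives. In sufficient LYP9 leaves LEA19 measured 585.18, 36.29 and 329.19 intensity units, against 32.13, 30.8 and 37.83 in deficient LYP9 leaves. In sufficient 9311 leaves it measured 859.64, 1069.31 and 283.13, against 38.96, 42.14 and 52.24 in deficient 9311 leaves. In sufficient PA64s leaves it measured 183.6, 818.49 and 27.13, against 73.52, 78.7 and 88.48 in deficient PA64s leaves. The states did not overlap in 9311, whereas in LYP9 and PA64s 1 sufficient array lay among or below the deficient ones. The log2 difference was 3.86 ± 0.99 in 9311 (adjusted p = 0.0193), 2.51 ± 0.99 in LYP9 (adjusted p = 0.128) and 1.00 ± 0.99 in PA64s (adjusted p = 0.578). The 95% interval in PA64s ran from -1.11 to 3.11, which includes the difference seen in LYP9. Without replicate 2 of the sufficient PA64s leaves the PA64s difference was -0.18 (adjusted p = 0.925), and without replicate 3 it was 2.28 (adjusted p = 0.187). The 9311 call was lost without replicate 1 or 2 of the sufficient or replicate 1 of the deficient 9311 leaves (log2 3.48 to 3.77, adjusted p = 0.0675 to 0.0739). The LYP9 difference was called without replicate 2 of its sufficient leaves (log2 3.71, adjusted p = 0.0219).

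In the deficient state LEA19 varied little within a cultivar, with SDs of 0.16, 0.22 and 0.14 log2 units in LYP9, 9311 and PA64s leaves, and its arrays fell in 3 separate ranges. The 3 deficient LYP9 arrays lay below all 3 deficient 9311 arrays, and these lay below all 3 deficient PA64s arrays. Between LYP9 and 9311 the margin was narrow, from 37.83 to 38.96 units. Of all probe sets tested, 0.0991% showed this same order without overlap. The order was taken from LEA19 itself and other orders were not counted, so that share does not measure how unusual the separation is. The LYP9 and 9311 means, 5.06 and 5.46 log2 units, lay below the leaf filter level of 5.753. The fit shares 1 spread over all leaf groups, which for LEA19 is set mostly by the sufficient ones, and neither LYP9 minus 9311 (log2 -0.40 ± 0.99, adjusted p = 0.986) nor LYP9 minus PA64s (log2 -1.26 ± 0.99, adjusted p = 0.764) was called in deficient leaves, where 1.92% and 1.96% of all probe sets were.

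Dhn1, a dehydrin, had no called nutrient difference in leaf. Its first probe set measured 1318.95, 1000.37 and 1010.68 units in sufficient LYP9 leaves, against 681.74, 906.04 and 804.11 in deficient LYP9 leaves, which did not overlap (log2 difference 0.47 ± 0.27, adjusted p = 0.288). In 9311 leaves it measured 969.29, 1476.08 and 1002.97 in the sufficient state, against 1080.38, 1070.09 and 1053.85 in the deficient state. In PA64s leaves it measured 1127.66, 2011.15 and 778.73 in the sufficient state, against 853.29, 1021.49 and 1269.57 in the deficient state. The states overlapped in both parents, with log2 differences of 0.08 ± 0.27 in 9311 (adjusted p = 0.88) and 0.22 ± 0.27 in PA64s (adjusted p = 0.648). The second and the third probe sets reached at most 55.05 and 20.8 units on any leaf array and were not tested there. In LYP9 the third went the other way without overlap, near background. It ran from 13.03 to 15.93 units in sufficient and from 19.13 to 20.31 in deficient LYP9 leaves (log2 -0.42). Of all probe sets tested, 8.67% did not overlap in that direction.

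The dehydrin rab25 and the Em protein gene Emp1 were near background in leaf and were not tested there. For rab25 the leaf arrays ran from 32.51 to 61.04 units. Its log2 differences between the states were -0.05, 0.10 and 0.27 in LYP9, 9311 and PA64s. In PA64s its arrays just missed overlapping, with 44.52 units as the lowest sufficient and 44.37 as the highest deficient value. Of all probe sets tested, 18.2% did not overlap in that direction. For Emp1 the leaf arrays ran from 31.91 to 47.66 units, with log2 differences of 0.16, -0.01 and -0.08. Neither would have been called without the filter (adjusted p from 0.426 to 0.982).

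No nutrient difference of the receptor gene PYL11 was called in leaf. It measured 1672.98, 1616.39 and 1677.95 units in sufficient LYP9 leaves and 1572.13, 1483.05 and 1501.75 in deficient LYP9 leaves. There the PYL11 arrays of the states did not overlap, as for 18% of all probe sets tested in that direction. In 9311 it measured 1756.34, 1621.71 and 1662.08 in sufficient leaves and 1798.55, 2007.48 and 1689.17 in deficient leaves. In PA64s it measured 1522.55, 1638.74 and 1500.59 in sufficient leaves and 1624.53, 1546.5 and 1261.89 in deficient leaves. The log2 differences were 0.12, -0.12 and 0.08, each ± 0.11, with 95% intervals that together ran from -0.35 to 0.35 (adjusted p = 0.497 to 0.695). None of the 3 was called under any of 26 alternatives.

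**Figure D2:**
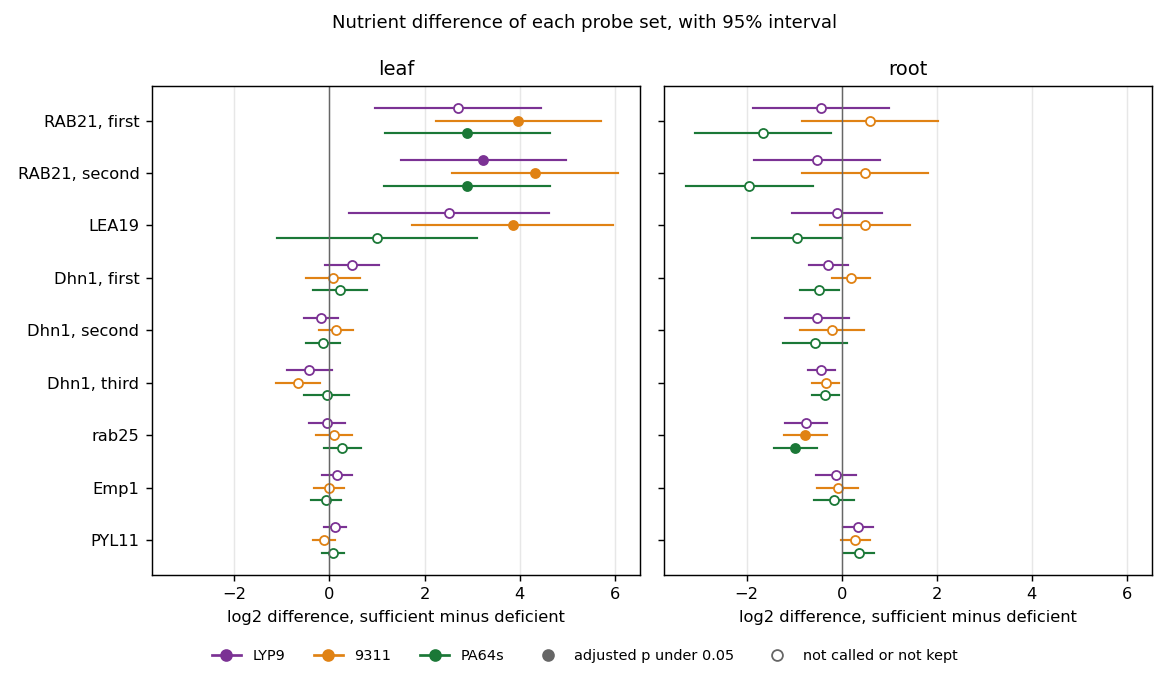
Log2 difference of nutrient-sufficient minus nutrient-deficient for each of the 9 probe sets in leaf (left) and root (right), by cultivar; bars are 95% intervals and filled points were called. The called points are RAB21 and LEA19 to the right of 0 in leaf, up to 4.33, and rab25 to the left of 0 in root, at -0.76 and -0.98.

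The same comparison in root asks whether roots of the same cultivars differed in the same way. In root the sole called member was rab25, and it was lower in the sufficient state. It was called in 9311 and PA64s roots. In LYP9 roots 0 of 7 tested probe sets were called, and limma gave 3 at an unadjusted p under 0.05. There 5626 of all 34316 probe sets tested were under that unadjusted threshold. Among all probe sets tested, 3.46% were called in LYP9 roots, 5.89% in 9311 roots and 3.33% in PA64s roots, and 1.36%, 2.64% and 1.59% were called lower. Arrays did not overlap, with the sufficient ones lower, for 9.27%, 11.9% and 9.3% of all probe sets tested.

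In sufficient LYP9 roots rab25 measured 46.33, 67.27 and 39.52 units, against 113.31, 62.9 and 82.63 in deficient LYP9 roots. In sufficient 9311 roots it measured 33.63, 42.59 and 48.58, against 68.19, 80.01 and 62.28 in deficient 9311 roots. In sufficient PA64s roots it measured 37.2, 41.93 and 37.38, against 69.84, 78.46 and 80.92 in deficient PA64s roots. The states did not overlap in 9311 and PA64s, and in LYP9 they overlapped by 1 array on each side. The log2 difference was -0.98 ± 0.21 in PA64s (adjusted p = 0.017), -0.76 ± 0.21 in 9311 (adjusted p = 0.0447) and -0.75 ± 0.21 in LYP9 (adjusted p = 0.0631). The sufficient means, 5.28 to 5.64 log2 units, lay below the filter level of 5.703. The 9311 call was lost without filter (adjusted p = 0.0618), with 16 units added before log2 (-0.58, adjusted p = 0.0542), and without any of 11 arrays. In LYP9 the difference was called without replicate 2 of the sufficient or replicate 2 of the deficient LYP9 roots (-0.97 and -0.96, adjusted p = 0.0328 and 0.0364). The PA64s call was lost without replicate 3 of the sufficient roots or without replicate 2 or 3 of the deficient roots (-0.96 to -0.93, adjusted p = 0.0557 to 0.0657).

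RAB21 was low in root and was not called there. Its first probe set measured 42.55, 56.46 and 24.99 units in sufficient LYP9 roots, against 68.75, 45.29 and 46.64 in deficient LYP9 roots (log2 difference -0.42 ± 0.68, adjusted p = 0.842). In sufficient 9311 roots it measured 54.66, 365.57 and 28.65, against 57.98, 45.02 and 64.35 in deficient 9311 roots (0.59 ± 0.68, adjusted p = 0.65). Replicate 2 of the sufficient 9311 roots stood above all other root arrays, and without it the 9311 difference was -0.48. In sufficient PA64s roots RAB21 measured 32.94, 31.22 and 26.97, against 82.41, 48.84 and 210.71 in deficient PA64s roots, which did not overlap (-1.64 ± 0.68, adjusted p = 0.243). Leaving out the high 9311 array, which narrows the shared spread, brought that PA64s difference to an adjusted p of 0.0497.

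LEA19 was not called in root either. It ran from 37.72 to 151.8 units over the 9 sufficient roots and from 37.57 to 179.88 over the 9 deficient roots. The log2 differences were -0.09 ± 0.45 in LYP9, 0.49 ± 0.45 in 9311 and -0.93 ± 0.45 in PA64s (adjusted p = 0.958, 0.549 and 0.337). PA64s was the only cultivar whose root arrays did not overlap for LEA19, with 45.15, 77.0 and 60.06 units in the sufficient state and 100.49, 80.66 and 179.88 in the deficient state.

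No Dhn1 probe set was called in root. The third one measured 49.89, 38.59 and 46.43 units in sufficient LYP9 roots, against 63.13, 56.2 and 61.68 in deficient LYP9 roots, with no overlap (log2 difference -0.43 ± 0.13, adjusted p = 0.0964). In 9311 it measured 46.8, 50.06 and 49.93 units in sufficient roots, against 54.03, 65.46 and 65.69 in deficient roots, also with no overlap (-0.33 ± 0.13, adjusted p = 0.149). In PA64s it was at -0.34 ± 0.13 with overlapping arrays (adjusted p = 0.222). The first probe set was at -0.28, 0.20 and -0.47 in LYP9, 9311 and PA64s, each ± 0.19 (adjusted p = 0.532, 0.583 and 0.24). The second was at -0.51, -0.20 and -0.56, each ± 0.32 (adjusted p = 0.475, 0.76 and 0.447).

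PYL11 differed in root by log2 0.35, 0.29 and 0.36 in LYP9, 9311 and PA64s, each ± 0.15, and none was called (adjusted p = 0.242, 0.247 and 0.238). In PA64s it measured 765.32, 747.55 and 711.25 units in the sufficient state, against 524.78, 559.29 and 649.4 in the deficient state, which did not overlap, as for 9.74% of all probe sets in that direction. In LYP9 it measured 711.46, 676.98 and 819.82 in sufficient roots against 576.78, 684.61 and 483.07 in deficient roots. In 9311 it measured 643.19, 857.11 and 800.88 in sufficient roots against 556.55, 719.86 and 600.92 in deficient roots, and both overlapped. Emp1 was near background in root too, from 26.83 to 48.2 units, with log2 differences of -0.11, -0.08 and -0.16.

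**Figure D3:**
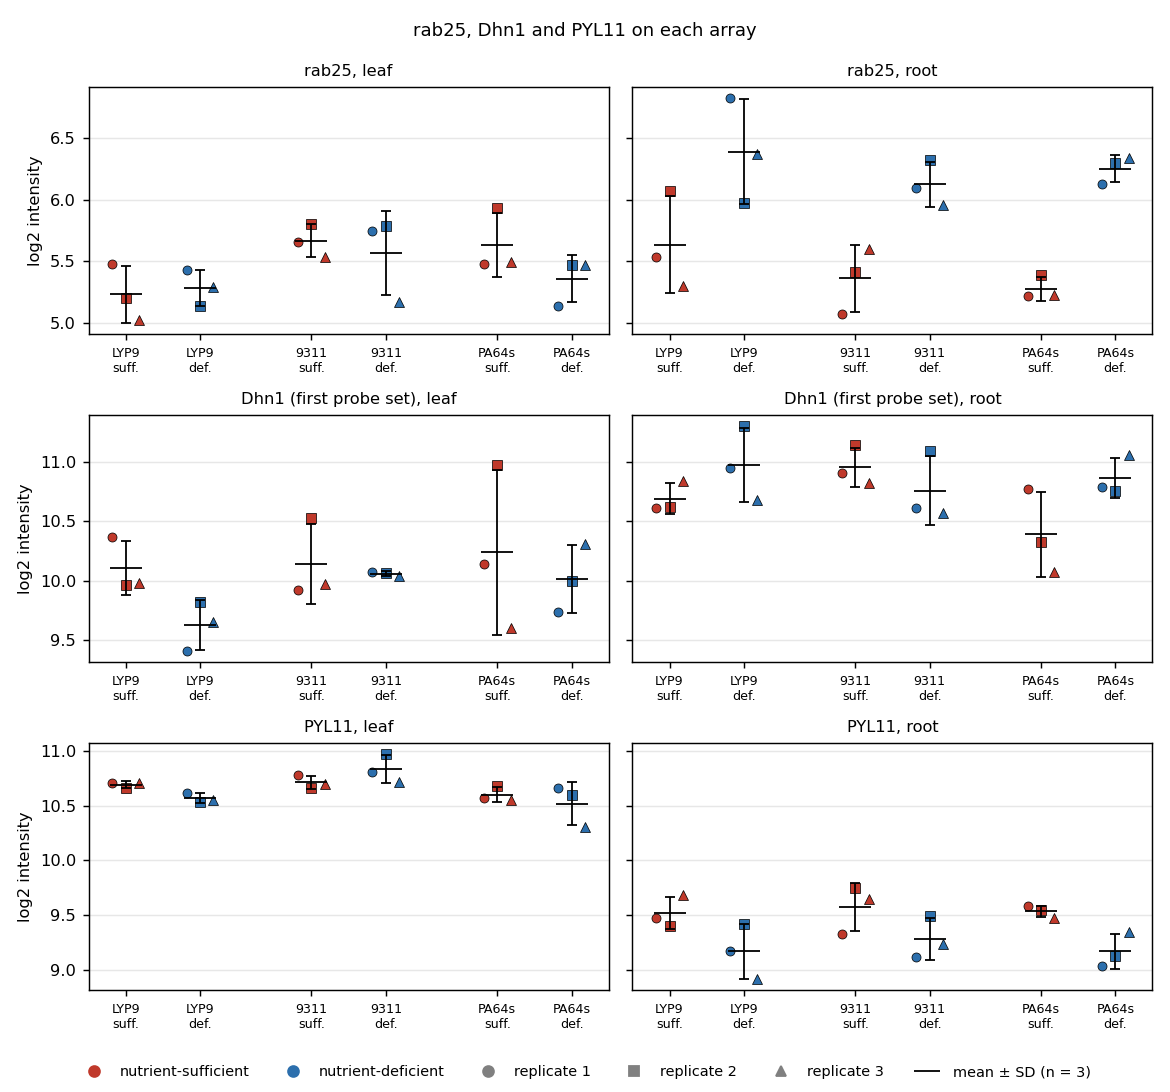
Log2 intensity of rab25 (top), the first probe set of Dhn1 (middle) and PYL11 (bottom) on each array, for leaf (left) and root (right), by cultivar and nutrient state; bars are the mean and SD of 3 arrays, and the rows have different scales. For rab25 the sufficient roots lie below the deficient ones in 9311 and PA64s, and all PYL11 leaf arrays lie above all root arrays.

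The tissues themselves differed for 3 of the genes. Averaged over cultivars and states, 5 of the 6 probe sets tested were called between leaf and root, 3 higher in leaf (RAB21 on both probe sets and PYL11) and 2 lower in leaf (Dhn1 on its first and second probe sets). Of all probe sets tested, 81.4% were called between the tissues, 43.9% higher and 37.5% lower in leaf. These calls were therefore the rule on this array. The fit of both tissues kept the second RAB21 probe set through its leaf signal and the second of Dhn1 through its root signal. PYL11 measured 1261.89 to 2007.48 units over 18 leaf arrays, median 1623.12, against 483.07 to 857.11 over 18 root arrays, median 680.795. No leaf array overlapped a root array, which was so for 14% of all probe sets in that direction, and the difference was 2.43-fold (log2 1.28 ± 0.05, adjusted p = 1.01e-19). RAB21 was higher in leaf by log2 2.97 ± 0.32 on the first probe set (adjusted p = 1.54e-09), with overlapping ranges of 88.53 to 4698.13 units in leaf and 24.99 to 365.57 units in root.

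Dhn1 measured 681.74 to 2011.15 units in leaf, median 1016.085, against 1075.03 to 2514.65 units in root, median 1754.73, on its first probe set, and was 1.67-fold lower in leaf (log2 -0.74 ± 0.10, adjusted p = 7.07e-08). Its second probe set separated the tissues fully, with 28.88 to 55.05 units in leaf against 75.05 to 229.76 in root. The difference was log2 -1.78 ± 0.11 (adjusted p = 1.93e-15). That probe set did not pass the filter in leaf, where it was near background, and was kept here through its root signal. The third also separated the tissues fully, with 8.45 to 20.8 units in leaf against 38.59 to 68.05 in root (log2 -1.79 ± 0.08). It entered a test only without the filter (adjusted p = 4.47e-19). Such a full separation with leaf lower was seen for 14.2% of all probe sets. LEA19 was not called between tissues (log2 0.68 ± 0.33, adjusted p = 0.0601), but it was called without any of 5 arrays (log2 0.74 to 0.90) and with 16 units added before log2 (0.67, adjusted p = 0.0349). The difference for rab25 was -0.38 ± 0.08, below the filter (adjusted p = 0.000141 without it), and for Emp1 it was 0.06 ± 0.07.

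A direct test asked whether the nutrient difference, averaged over the cultivars, differed between leaf and root. It was called for 4 of the 6 probe sets tested, 3 higher and 1 lower, against 18.8% of all probe sets, 12.4% higher and 6.38% lower. The nutrient difference of RAB21 was larger in leaf than in root by log2 3.69 ± 0.65 on the first probe set (adjusted p = 0.000159) and by 4.15 ± 0.63 on the second (adjusted p = 2.66e-05). For LEA19 it was larger in leaf by 2.63 ± 0.67 (adjusted p = 0.00571). These 3 calls held at all of their alternatives, 43 for each RAB21 probe set and 42 for LEA19. The second RAB21 probe set did not pass the filter in root and was kept here through its leaf signal. As said above, it is no independent measurement beside the first. For PYL11 the nutrient difference was smaller in leaf by log2 0.31 (-0.31 ± 0.10, adjusted p = 0.0371), and that call was lost without any of 17 arrays. For rab25 the nutrient difference was 0.94 ± 0.16 higher in leaf, and it was tested only without the filter (adjusted p = 0.000217). For Dhn1 the first probe set was at 0.45 ± 0.20 (adjusted p = 0.114), and it was called without replicate 3 of the sufficient PA64s leaves (log2 0.55, adjusted p = 0.0301).

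The last comparison asks whether the cultivars differed. The 10 contrasts between cultivars were 9311 minus PA64s, LYP9 minus the mean of the parents in each state, and the differences in nutrient response. Over them limma called 0 of 60 tests of these probe sets, and 4 were at an unadjusted p under 0.05. Of these 4, 3 were among the 7 tests of the root nutrient response of 9311 minus that of PA64s. There 4066 of all 34316 probe sets tested were under that unadjusted threshold. The other was among the 5 tests of leaf 9311 minus PA64s, where 8172 of all probe sets were. The shares called among all probe sets were 11.9% in leaf and 13.3% in root for 9311 minus PA64s. For LYP9 minus the mean of the parents they were 0.822% in sufficient and 0.906% in deficient leaves, and 0.72% in sufficient and 0.513% in deficient roots. For the nutrient response of 9311 minus that of PA64s they were 0.0175% in leaf and 0.00874% in root, and for that of LYP9 minus the mean of the parents 0% in both. LYP9 was counted as outside the parental range where it was called against both parents in the same direction. That held for 0 of the member probe sets tested by limma, against 0.00583% and 0.0146% of all probe sets in sufficient and deficient leaves and 0% in roots. Means of LYP9 below both parents that were not called include LEA19 in deficient leaves, as given above, RAB21 in sufficient leaves, and the first probe set of Dhn1 in deficient leaves. The last was at 9.63 log2 units in LYP9, against 10.06 in 9311 and 10.01 in PA64s, and the LYP9 arrays overlapped those of PA64s and not those of 9311. Other uncalled means of LYP9 lay above both parents. They include rab25 in sufficient and in deficient roots, the latter at 6.39 against 6.12 in 9311 and 6.25 in PA64s. The first probe set of Dhn1 in deficient roots was at 10.97 in LYP9, against 10.75 in 9311 and 10.86 in PA64s. The lowest adjusted p was that of PYL11 in leaf, where 9311 was higher than PA64s by log2 0.21 ± 0.08 (adjusted p = 0.0891).

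The intervals of these contrasts were wide for the genes with a large nutrient difference. The nutrient response of RAB21 in leaf was log2 1.07 larger in 9311 than in PA64s, with a 95% interval from -1.39 to 3.54, and that of LEA19 was 2.86 larger, with an interval from -0.13 to 5.84. The RAB21 response of LYP9 leaves minus the mean of the parents was -0.73, with an interval from -2.86 to 1.41. Differences of several fold between the cultivars lie inside these intervals. For PYL11 the same contrast was 0.15, with an interval from -0.14 to 0.43.

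RAB21 had the widest span of the 9 probe sets over the 12 group means after its own second probe set, from 4.92 in sufficient PA64s roots to 10.98 log2 units in sufficient 9311 leaves. Ordered by mean, the groups ran sufficient 9311 leaves, sufficient PA64s leaves, sufficient LYP9 leaves, then the 3 deficient leaf groups, then the 6 root groups. Of the 11 neighbouring pairs in that order, 10 overlapped, and the gap lay between sufficient LYP9 and deficient PA64s leaves (9.84 and 7.30). For LEA19, sufficient 9311 leaves came first at 9.32 log2 units, and deficient 9311 and LYP9 leaves came last at 5.46 and 5.06, below all root groups. For rab25 the 3 deficient root groups came first, at 6.39, 6.25 and 6.12 log2 units in LYP9, PA64s and 9311, and the arrays of the other 9 groups overlapped in order. For PYL11 the 6 leaf groups lay between 10.52 and 10.84 and the 6 root groups between 9.17 and 9.57.

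In LYP9 and PA64s the lowest sufficient leaf array was the same for RAB21 and LEA19. Replicate 2 of the sufficient LYP9 leaves and replicate 3 of the sufficient PA64s leaves were lowest of their groups for both genes. In 9311 the lowest sufficient array was replicate 1 for RAB21 (1376.8 units) and replicate 3 for LEA19 (283.13 units). Over the 18 leaf arrays the deviations of RAB21 and LEA19 from their group means correlated at r = 0.88, and at 0.74 over 16 arrays without the 2 farthest from the RAB21 median. In the 9 sufficient leaves r was 0.95 and in the 9 deficient leaves it was 0.06. RAB21 and the first probe set of Dhn1 correlated at 0.91 over 18 arrays, 0.91 in the sufficient and 0.96 in the deficient leaves. RAB21 and PYL11 correlated at -0.01 over 18 arrays, at 0.53 in the sufficient and at -0.57 in the deficient leaves. These correlations describe arrays that share a hybridisation and a sample, and no p is given for them.

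**Figure D4:**
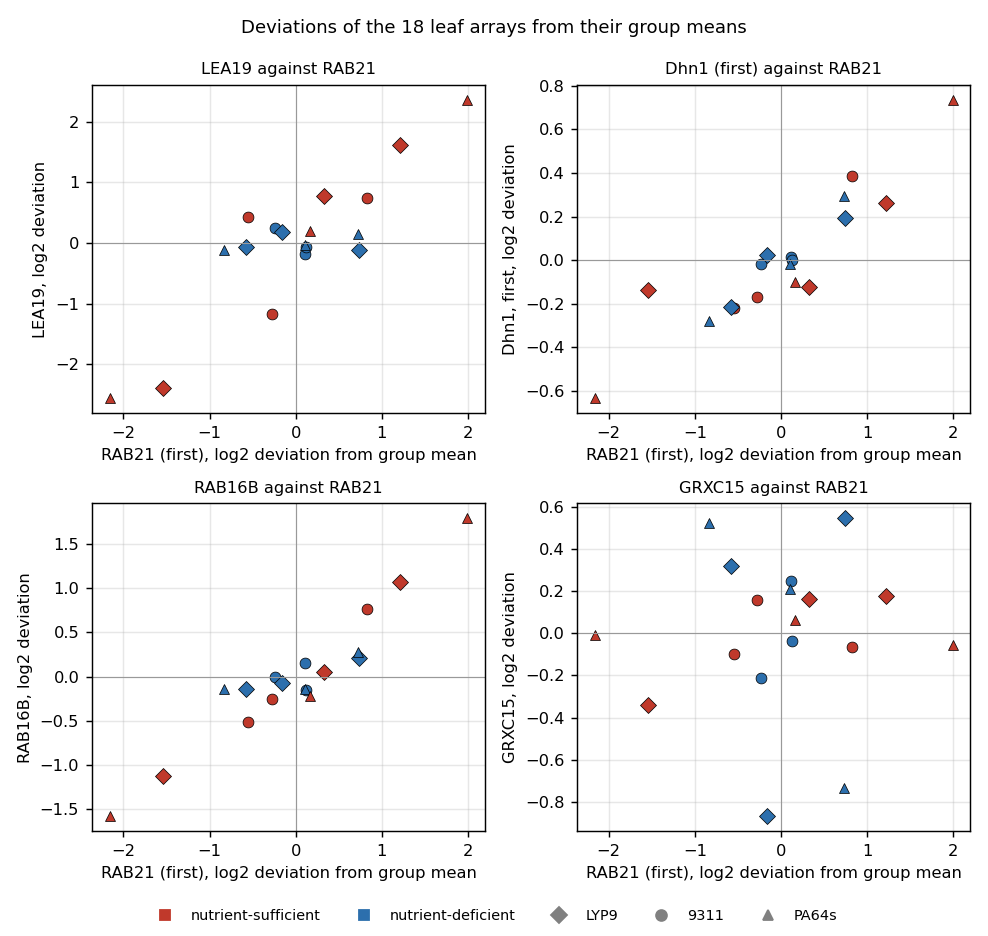
Deviation of each of the 18 leaf arrays from its group mean (log2), for LEA19, the first probe set of Dhn1, RAB16B and GRXC15 (vertical axes) against the first probe set of RAB21 (horizontal axes); colour gives the nutrient state and shape the cultivar. Over all 18 arrays r was 0.88 for LEA19 (0.95 in sufficient and 0.06 in deficient leaves), 0.91 for Dhn1, 0.95 for RAB16B and 0.03 for GRXC15 (0.39 in sufficient and -0.24 in deficient leaves), which was chosen after its values were seen.

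The mean correlation of the 2 low arrays with the other arrays of their group was 0.9774 in LYP9, against 0.9775 and 0.9769 for the other 2, and 0.9784 in PA64s, against 0.9803 and 0.9817 for the other 2. GRXC15, a glutaredoxin, measured 2270.88 units on the low LYP9 array, below the 3246.97 and 3217.68 of its group, and 2557.35 on the low PA64s array, between the 2693.74 and 2479.51 of its group. ALN, the allantoinase of purine breakdown, measured 172.84 units on the low LYP9 array, between the 180.17 and 130.01 of its group, and 138.25 on the low PA64s array, below the 154.81 and 161.6 of its group. GRXC15 and ALN were chosen after their values were seen. The part of the sample or the array in these low values was not tested.

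In the reference gene table RAB21 lies on chromosome 11 next to RAB16B, RAB16C and RAB16D, dehydrins of the same family that follow each other there in that order. RAB16B (LOC4350453) also had a higher mean in sufficient leaves of all 3 cultivars, but unlike RAB21 its states overlapped in PA64s. It measured 324.96, 70.76 and 159.32 units in sufficient LYP9 leaves, against 43.72, 55.91 and 46.04 in deficient LYP9 leaves. In sufficient 9311 leaves it measured 278.7, 678.52 and 333.77, against 73.5, 59.5 and 65.73 in deficient 9311 leaves (log2 2.59 ± 0.63, 6.03-fold, adjusted p = 0.0143). In PA64s leaves it measured 196.88, 790.24 and 76.4 in the sufficient state, against 60.53, 60.51 and 80.66 in the deficient state, and neither PA64s nor LYP9 was called. RAB16C (LOC4350452) was higher in sufficient 9311 and PA64s leaves by log2 0.64 ± 0.14 and 0.49 ± 0.14 (adjusted p = 0.00854 and 0.0475). In LYP9 leaves it measured 215.2, 224.49 and 228.49 units in the sufficient state, against 157.39, 170.45 and 161.78 in the deficient state, with no overlap, and was not called (log2 0.45 ± 0.14, adjusted p = 0.0612). RAB16D (LOC4350451) differed by -0.13 in 9311 leaves and was not called. The family members are close in sequence, so signal passing between their probe sets is possible and was not tested.

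Of 36 other genes with a probe set, in lists of ABA synthesis, breakdown, phosphatases, SnRK2 kinases, transcription factors, and dehydration and dehydrin genes, 34 passed the filter in leaf and 31 in root. In leaf 2 were higher and 1 lower in LYP9, 5 and 3 in 9311, and 3 and 3 in PA64s. In root 1 was higher and 3 lower in LYP9, 1 and 4 in 9311, and 0 and 2 in PA64s. The median log2 difference over the genes tested was -0.12 in LYP9 leaves, -0.10 in 9311 leaves and -0.10 in PA64s leaves, against 0.07, 0.06 and 0.07 over all probe sets tested. The shares called over all probe sets were 8.85%, 11.9% and 7.73% in these leaves, and 3.46%, 5.89% and 3.33% in LYP9, 9311 and PA64s roots. PYL11 was the only receptor of this family with a probe set under a receptor name in these lists.

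Of the phosphatases that ABA receptors inhibit, PP2C30 (LOC4332374) was 2.05-fold higher in sufficient 9311 leaves (log2 1.04 ± 0.30, adjusted p = 0.0367), and 1 of 7 tested was called there. In PA64s leaves 1 of 7 was called higher too, and in LYP9 leaves 0 were called. In 9311 roots, OsPP2C08 (LOC4324182) was higher by 0.57 ± 0.15 (adjusted p = 0.0412) while PP2C30 was lower by log2 0.92 (-0.92 ± 0.25, adjusted p = 0.0419). Among the 10 SnRK2 kinases, 1 was higher and 1 lower in LYP9 leaves, 1 and 2 in 9311 leaves, and 1 and 2 in PA64s leaves. SAPK5 (LOC4337502) was lower in 9311, at 10.50 ± 0.16 log2 units in sufficient leaves against 11.27 ± 0.08 in deficient leaves (SD, n = 3; log2 -0.78 ± 0.16, adjusted p = 0.0047). SAPK3 (LOC4349411) was higher in sufficient PA64s leaves by 0.73 ± 0.14 (adjusted p = 0.00602). SAPK5 and SAPK3 are given only where their adjusted p was lowest, which does not set that cultivar apart. In root, SAPK1 (LOC4333017) was lower in the sufficient state of all 3 cultivars, by log2 -0.74, -0.80 and -0.86 in LYP9, 9311 and PA64s (adjusted p = 0.0193, 0.0117 and 0.00712).

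ZEP (LOC4335984), the zeaxanthin epoxidase of ABA synthesis, was lower in sufficient roots of all 3 cultivars. It was at 7.56 ± 0.21 log2 units in sufficient 9311 roots against 8.49 ± 0.12 in deficient 9311 roots (SD, n = 3; log2 -0.93 ± 0.12, adjusted p = 0.000481), and the differences were -0.67 in LYP9 and -0.64 in PA64s (adjusted p = 0.00578 and 0.00654). The transcription factor gene NAC6 (LOC4325006) was lower in sufficient 9311 leaves, the contrast of its lowest adjusted p (log2 -0.76 ± 0.15, adjusted p = 0.00482). P5CS (LOC4338979), which makes the osmolyte proline, was higher there by 0.79 ± 0.18 (adjusted p = 0.0095) and in LYP9 leaves by 0.70 ± 0.18 (adjusted p = 0.0248). By limma, 0 of 2 tested bZIP factors of the ABA list and 0 of 2 genes of ABA breakdown were called in any of the 6 nutrient contrasts.

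Patterns were compared over 12 group means, centred within tissue, among 2672 candidate probe sets. Candidates had a named gene and passed the filter in the fit of both tissues. Among them the closest to RAB21 were CYCD6-1 (r = 0.95), PXG (0.95) and LAC4 (0.94). RAB16B, whose means were higher in sufficient leaves of every cultivar, did not pass that filter and was not ranked. The order therefore does not show which of all named genes was closest to RAB21. For LEA19 the closest were the 2 probe sets of RAB21 (0.94 and 0.92) and COA20 (0.90). For Dhn1 they were UGD3 (0.91), STLP2 (0.91) and PRXIIC (0.80), for rab25 LAC10 (0.93), BGLU16 (0.90) and ARF24 (0.89), and for PYL11 GAPC3 (0.95), MT4A (0.93) and OsCASPL1D1 (0.90). For Emp1, which spans only 0.25 log2 units over the groups, UGD5 was closest at 0.83. These are descriptions over 12 means of the same arrays.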

How the data were processed

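The deposited table held linear intensity values of 57381 probe sets on 36 arrays, which the authors had processed before deposit. Per the submitters' processing notes, RMA and affy were used, in a role and version that are not given there, and no source used here gives the scaling. Lowest values sit at a floor of 1. Of the probe sets, 187 were controls and were left out, 22436 had 1 gene symbol, 95 had several and 34663 were not listed. Symbols were updated by gene ID through a RefSeq gene table, in which all 17905 genes were found. A gene was named by its RefSeq symbol, or else by its first synonym that is not a clone, which gave 2453 named genes.

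From the deposited intensity the log2 was taken once, with no further scaling. Group means were fitted with limma 3.58.1 (lmFit and eBayes) in R 4.3.3, leaf and root apart with 18 arrays each, and all 36 arrays together for contrasts between tissues. All tests were 2-sided. The filter kept the upper 60% by mean log2 intensity of the arrays in the fit. The level of the filter was 5.753 log2 units in leaf, 5.703 in root and 5.798 in both. The step was tested on simulated data. The number of arrays limits the precision.

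The members and the gene lists were chosen with earlier results of these data known. Of the pathway genes, up to 3 per list with the lowest adjusted p in any nutrient contrast were named. From the lists, ABIL1, ABIL2 and ABIL3 (names of Abl interactor-like proteins) and ABA1 (a synonym of TRAB1) were dropped after the annotation was seen. GRXC15 and ALN were added after their values were seen. Likeness was Pearson's r over 12 group means with the mean of each tissue taken off. Its candidates were named probe sets that passed the filter in the fit of both tissues. Alternatives were no filter, the upper 40%, quantile normalization, median centring, 16 units added before log2, a trended robust eBayes, all 36 arrays in 1 fit, the replicate number as a block, and leaving out each array.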

Additional observations from a re-analysis of the deposited data

Results flagged for a closer look

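For both RAB21 probe sets, LEA19 and PYL11, the test of whether the nutrient difference differed between leaf and root was past the threshold. The second RAB21 probe set did not pass the filter in root. The nutrient difference of RAB21 in leaf minus that in root was log2 3.69 (3.6882) on the first probe set, with a 95% interval from 2.36 to 5.02, and 4.15 (4.1461) on the second, with an interval from 2.85 to 5.44. For LEA19 it was 2.63 (2.6337), with an interval from 1.27 to 3.997. For PYL11 it was -0.31 (-0.3078), with an interval from -0.52 to -0.09. No outlier test was run in these groups of 3 arrays, though low arrays were described and each array was left out in turn.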

How the results depend on the processing

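Of the 18 counts of called member probe sets, one per contrast, 13 never moved by over 1.5 times, but 10 of these 13 were counts of 0, and of the 6 nutrient counts 5 moved. No called difference changed direction under any alternative run. In PA64s leaves the count was 2, and it was 0 without filter, after quantile normalization and after median centring. In LYP9 leaves it was 1, and it was 2 with the upper 40% of probe sets and with the replicate block, and 3 with all 36 arrays in 1 fit (RAB21 first probe set adjusted p = 0.0453, 0.0412 and 0.0229). In 9311 roots it was 1, and it was 0 without filter, with the upper 40%, where rab25 was not tested, with 16 units added and with the replicate block (adjusted p = 0.0523). In PA64s roots it was 1, and 0 with the upper 40%, where rab25 was not tested. In LYP9 roots it was 0, and 1 with all 36 arrays (rab25 adjusted p = 0.0305). Leaving out 1 array gave counts of 0 to 3 in LYP9 leaves, 2 to 3 in 9311 leaves, 0 to 2 in PA64s leaves, 0 to 1 in LYP9 roots, 0 to 1 in 9311 roots and 0 to 2 in PA64s roots. Apart from loss of rab25 to the filter, the cause was not tested. For single differences, 2093 of 2160 values kept their side of the threshold without an array, and 852 of 870 under the other settings. Same-numbered arrays of the 2 states had deviations that correlated over 0.1 in 9 of 18 pairs (-0.212 to 0.512), so the numbers were not taken to pair the samples. The replicate block changed no other call of a member. Probe sets near the background limit rab25, Emp1 and the third Dhn1 probe set.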
